A study of Rattus norvegicus with 40 samples.

Results

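The miR-379/410 cluster is a long run of miRNA genes in the imprinted Dlk1-Dio3 domain of rat chromosome 6, transcribed together with the non-coding host RNA Mirg. Its members were taken from the deposited count matrix by name: every mature miRNA whose number belongs to 1 of 34 hairpins of the cluster, whichever arm it came from. This gave 65 of the 752 miRNAs in the matrix. Of these 65 members, 49 had at least 1 read in the 40 plasma libraries and 16 had none.

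The study sequenced small RNA from tail vein plasma of adult male Sprague-Dawley rats, drawn on day 2 (D2) and day 9 (D9) after surgery. Sham rats (n = 4) were operated on without an impact. Injured rats (TBI, n = 16) received a lateral fluid-percussion injury, a pressure pulse on the exposed dura that damages the cortex and hippocampus of one side. By continuous video-EEG, kept running for 1 month in the sixth month after injury, they were divided into 7 rats with epilepsy (TBI+, labelled TBIE) and 9 without (TBI−, labelled TBIN). Each rat gave 1 library on each day, so the groups hold 20 rats and 40 libraries. A rat's outcome was known only months after both samples had been drawn, and the TBI+ and TBI− groups had the same injury.

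A miRNA hairpin is cut into 2 strands named by their end, 5p and 3p, and usually 1 of them is loaded into an Argonaute protein and guides it to messenger RNAs that match its seed, the bases near its 5′ end. The genes of this cluster are expressed from the maternal chromosome only, and in the adult mainly in neurons. Several of them act in dendrites: transcription of the cluster responds to neuronal activity through the factor Mef2, miR-134-5p limits dendritic spine size by repressing Limk1, and miR-485 lowers the synaptic vesicle protein SV2A. Blood plasma holds miRNAs shed by many tissues, so that a plasma level cannot tell release from production, nor a change in 1 tissue's share from a change in the rest. Fewer releasing cells and less miRNA released per cell cannot be told apart either.

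The mature sequences of the members on which the results turn are given from RefSeq (GRCr8 annotation), which held 64 of the 65 members; miR-679 was not matched. All 33 hairpins in that table lie on the plus strand of chromosome 6, in the order used here, from miR-379 to miR-410. Bases 2 to 8 from the 5′ end, the seed, are in capitals. The first 5 are the members that differed between TBI and sham on D2, and no 2 of them share a seed.
miR-380-3p: uAUGUAGUaugguccacaucu
miR-323-3p: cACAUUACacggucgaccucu
miR-382-5p: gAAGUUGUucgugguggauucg
miR-668: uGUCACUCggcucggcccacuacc
miR-410-3p: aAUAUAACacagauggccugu

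The next 4 changed between D2 and D9 in the TBI rats, and the fifth is the member whose D9 values rest on 1 sham library.
miR-323-5p: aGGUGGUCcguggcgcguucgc
miR-667-3p: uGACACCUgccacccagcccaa
miR-369-3p: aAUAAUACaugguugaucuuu
miR-541-5p: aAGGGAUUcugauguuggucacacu
miR-494-3p: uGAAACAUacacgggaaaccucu

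The last set shows members that a short read may not separate. Within each of 3 pairs, a stretch of 18 to 21 bases is the same except for at most 1 base.
miR-300-3p: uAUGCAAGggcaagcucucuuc
miR-381-3p: uAUACAAGggcaagcucu
miR-379-3p: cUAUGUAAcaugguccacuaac
miR-411-3p: uAUGUAACacgguccacuaa
miR-376c-5p: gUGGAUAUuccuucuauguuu
miR-376b-5p: gUGGAUAUuccuucuaugguua

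In the first pair the longest such stretch was 18 bases, in the second 20 and in the third 21. The counts of miR-379-3p (27 reads) and miR-411-3p (24 reads) were equal in 35 of the 40 libraries, and those of miR-376c-5p (20 reads) and miR-376b-5p (21 reads) in 39. The reads of these pairs may be shared, so they are counted as separate members only in name. miR-300-3p (2227 reads) and miR-381-3p (2954 reads) were equal in 1 library, and their levels are given separately with the same doubt. Seeds were shared by miR-381-3p and miR-539-3p (AUACAAG), by miR-376c-5p and miR-376b-5p (UGGAUAU), and by miR-494-5p, miR-496-5p and miR-410-5p (GGUUGUC), the last 3 with 1 read between them.

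Library totals over the 752 miRNAs ranged from 404542 to 2562083 reads on D2 and from 332161 to 2864893 in the TBI rats on D9, but only from 140636 to 358202 in the sham rats on D9. The limit that a count of 0 allows, 3 reads, therefore stood at 1.17 to 7.42 CPM (1000000 times the read count over the library total) in the D2 TBI libraries, at 2.25 to 5.05 CPM in the D2 sham libraries, at 1.05 to 9.03 CPM in the D9 TBI libraries and at 8.38 to 21.3 CPM in the D9 sham libraries. Limits and intervals cover counting error only, since the reads carried no molecular identifiers. Of the lists for tissues that feed plasma, 5 of 5 red blood cell, 3 of 3 platelet and myeloid, 2 of 2 lymphocyte, 2 of 3 liver, 3 of 5 muscle and 7 of 7 neuronal miRNAs had reads, whereas miR-122-5p of the liver and miR-1-3p and miR-133a-3p of muscle were at 0 in every library. The numbers in the library names fall into 3 runs whose meaning is not stated. The D2 sham libraries all lie in the first run, together with TBI+ rats 1 to 4 of D2 but with no TBI− library of D2, and the D9 sham libraries all lie in the third.

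The cluster made a small share of the plasma miRNA reads, and few members carried most of it. All members together summed to 162 to 311 CPM in the D2 sham libraries and 173 to 663 CPM in the D2 TBI libraries, and to 235 to 537 CPM and 120 to 562 CPM on D9. Of 16284 member reads, miR-410-3p, miR-381-3p, miR-300-3p and miR-134-5p held 60.6%, and these were the 4 members present in all 40 libraries. The 10 highest members held 83.6%.

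Mean levels over the 40 libraries, not scaled to the miRNAs' similar lengths, were 68.5 CPM for miR-410-3p, 68.2 CPM for miR-381-3p, 48.1 CPM for miR-300-3p and 35.8 CPM for miR-134-5p. Behind them came miR-323-3p at 18.0 CPM, miR-668 at 16.9 CPM, miR-667-3p at 13.8 CPM and miR-329-5p at 11.5 CPM. miR-541-5p at 10.5 CPM and miR-369-3p at 10.0 CPM closed the 10 highest, and neighbours in this order differed by less than the spread between libraries. At least 10 reads were found for 37 members and 1 to 9 reads for 12.

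**Figure D1:**
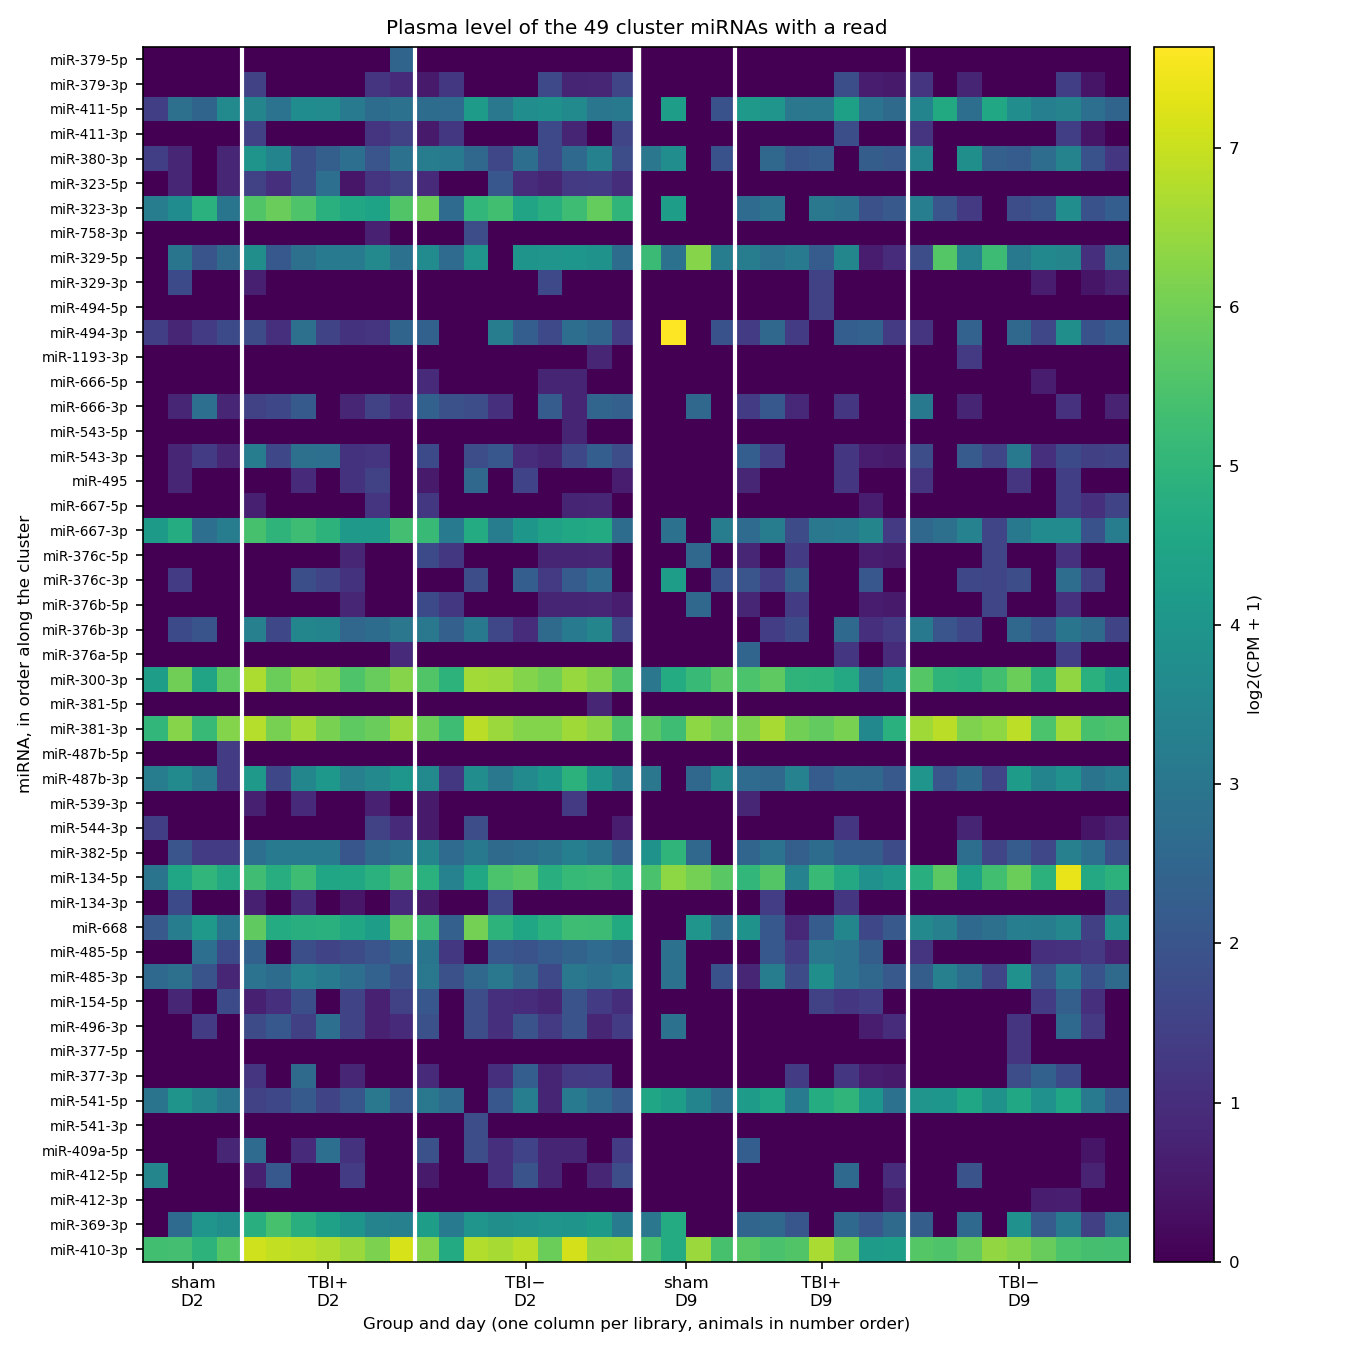
Level of the 49 members with a read (rows, in order along the cluster) in each of the 40 libraries (columns, by group and day), as log2(CPM + 1) on the colour scale. The rows of miR-300-3p, miR-381-3p, miR-134-5p and miR-410-3p carry reads in all 40 libraries, and the brightest cell is miR-494-3p in the D9 library of sham rat 2, at 197 CPM.

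Each hairpin gave reads mainly from 1 of its strands. Of 31 hairpins with both strands in the matrix, 27 had at least 10 reads, and in 24 of these over 90% of the reads came from 1 strand, the 3p strand in 15 and the 5p strand in 9. The 3p strand held 96.8% of the miR-323 reads, 97.4% of the miR-667 reads, 99.4% of the miR-494 reads and every read of miR-300, miR-369, miR-380 and miR-410. The 5p strand held 99.8% of the miR-541 reads, 99.0% of the miR-134 reads and every read of miR-382, miR-409a and miR-376a. The 3 hairpins in between were miR-379 (84.4% 3p), miR-376c (77.5% 3p) and miR-485 (67.8% 3p), named after their values were seen. miR-379-5p, the first miRNA of the cluster, had 5 reads, all in the D2 library of TBI+ rat 7.

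Some of the missing strands have an annotated miRNA on the opposite DNA strand. For 8 members the mature sequence overlaps a mature miRNA of the minus strand: miR-299a-5p, miR-299a-3p, miR-380-5p, miR-376a-3p, miR-539-5p, miR-382-3p, miR-409a-3p and miR-369-5p. All 8 had no read, and their opposite-strand partners had no read either. Of the 56 members without such an overlap, 7 had no read (12.5%): miR-758-5p, miR-1193-5p, miR-300-5p, miR-544-5p, miR-154-3p, miR-496-5p and miR-410-5p. The remaining member without a read was miR-679. Over the whole matrix, 84 of 92 miRNAs with such an overlap had no read (91.3%), against 70 of 593 without one (11.8%). Whether reads were counted by strand is not given in the sources used here, and the part of the counting in these zeros was not tested. The strand shares of miR-380, miR-376a, miR-382, miR-409a and miR-369 are given with this limit.

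**Figure D2:**
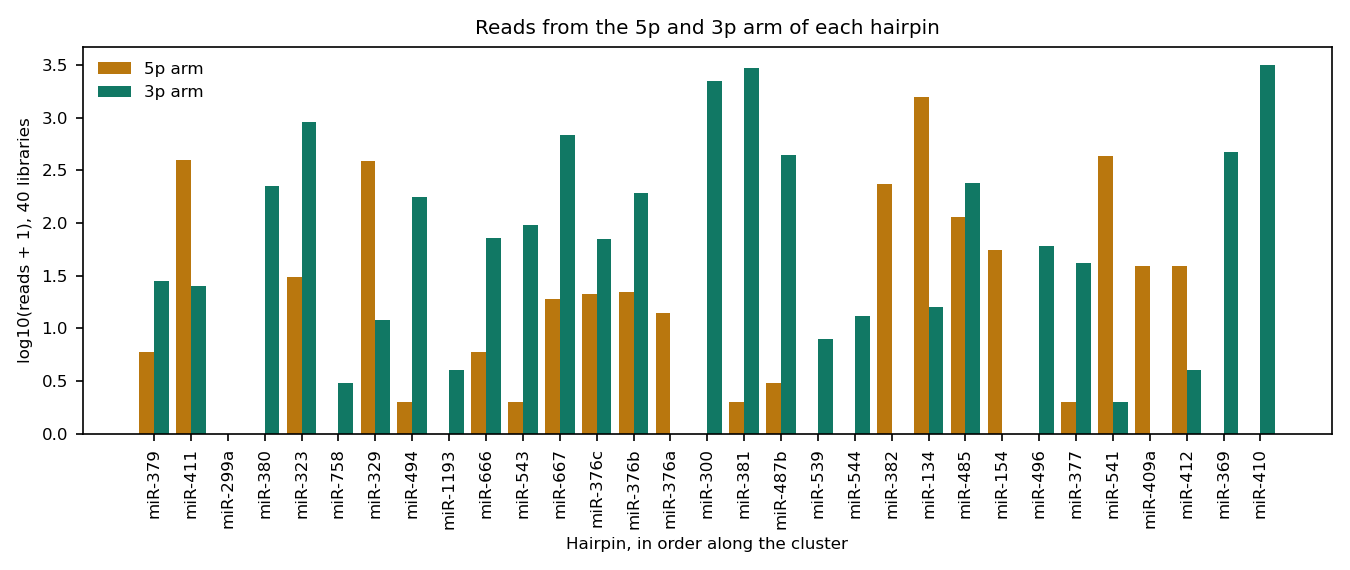
Reads of the 5p (brown) and 3p (green) strand of the 31 hairpins with both strands in the matrix, summed over 40 libraries, as log10(reads + 1), in order along the cluster. In 24 of the 27 hairpins with at least 10 reads 1 strand held over 90% of them; a missing bar means no read.

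On D2 the question was which members differ in plasma between injured and sham rats. Among 46 members with a D2 read, 5 were higher in TBI than in sham and none was lower: miR-410-3p, miR-668, miR-380-3p, miR-382-5p and miR-323-3p. Over all 565 miRNAs tested, 35 passed in either direction (6.19%), 18 of them higher (3.19%) and 17 lower (3.01%), or 17 higher and 6 lower when scaled to miR-28-3p, the reference miRNA of the study. The median log2 fold change (log2FC) was 1.07 over the 46 members and 0.09 over all miRNAs. A positive log2FC was found in 41 members (89.1%), against 56.3% of all miRNAs. Members with D2 reads in TBI libraries only could not come out otherwise, and they count in both figures. At an unadjusted p below 0.05, 15 members were higher and 2 lower, against 9.20% and 9.03% of all miRNAs. The test throughout was edgeR's quasi-likelihood test, with p adjusted by Benjamini-Hochberg over all miRNAs of the comparison and called below 0.05. DESeq2 called 7 members, these 5 with miR-300-3p and miR-376b-3p, with 7.96% of all miRNAs called.

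miR-410-3p, the last miRNA of the cluster, was the most abundant of the 5. In the D2 sham rats 1 to 4 it stood at 38.7, 39.7, 29.8 and 48.1 CPM, and in the TBI rats at 24.2 (lowest), 101.7 (median) and 142 CPM (highest). Every TBI library except that of TBI− rat 2 was above the highest sham value. The means were 97.6 ± 31.8 CPM (SD, n = 16) and 39.1 ± 7.47 CPM (SD, n = 4), and the log2FC was 1.41 ± 0.28 (SE; edgeR adjusted p = 0.0020).

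miR-668 stood at 3.37, 8.41, 16.4 and 6.76 CPM in the D2 sham rats and at 4.03, 27.9 and 64.3 CPM (lowest, median, highest) in the TBI rats. The lowest value was again that of TBI− rat 2, and the next lowest TBI value, 18.3 CPM, lay above all shams. Its log2FC was 1.92 ± 0.43 (SE; edgeR adjusted p = 0.0043).

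miR-323-3p was picked by the study from these same libraries for follow-up, so its rise here is not independent evidence. By PCR in a larger cohort, which included some of these rats, the study measured it higher in TBI than in sham plasma. The other members called here are also in the study's own list of D2 differences from these libraries. Its D2 sham values were 8.41, 12.2, 28.3 and 6.76 CPM and its TBI values 5.37, 34.6 and 59.6 CPM (lowest, median, highest). The groups overlapped: 10 of 16 TBI values were above the highest sham and 1, that of TBI− rat 2, was below the lowest. The log2FC was 1.50 ± 0.42 (SE; edgeR adjusted p = 0.0276), and the call was lost when sham rat 1, 2 or 4 was left out (edgeR adjusted p from 0.0789 to 0.143). It was also lost when scaled to miR-28-3p (0.0518) and after thinning (0.172).

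miR-382-5p had measured values that did not overlap between the groups, with 0, 3.06, 1.49 and 1.50 CPM in the sham rats and 3.12, 6.46 and 10.1 CPM (lowest, median, highest) in the TBI rats. The sham values rest on 7 reads, and the 3-read limit of sham rat 1, at 0, is 5.05 CPM, above the lowest TBI value. Its log2FC was 1.93 ± 0.51 (SE; edgeR adjusted p = 0.019), and the call was lost without sham rat 1 (0.0832) or sham rat 4 (0.0591). It was also lost with the replicate number as a block (0.0796) and with the run as a term (0.0982), and filterByExpr removed it before the test.

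miR-380-3p was the other member without overlap: it had 1.68, 0.764, 0 and 0.751 CPM in the sham rats, 3 reads in all, and 2.11, 5.41 and 14.3 CPM (lowest, median, highest) in the TBI rats, with reads in all 16. The ratio of its pooled CPM was 7.84 (95% exact counting interval 2.62 to 38.5). The fitted log2FC was 2.89 ± 0.71 (SE; edgeR adjusted p = 0.010), which depends on the prior count, and the call was lost without sham rat 4 (0.0501) and after thinning (0.105). The 3-read limit of sham rat 3, at 0, is 4.47 CPM, also above the lowest TBI value. Of all 565 miRNAs, 12 did not overlap between TBI and sham on D2 (2.12%), against 2 of 46 members.

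**Figure D3:**
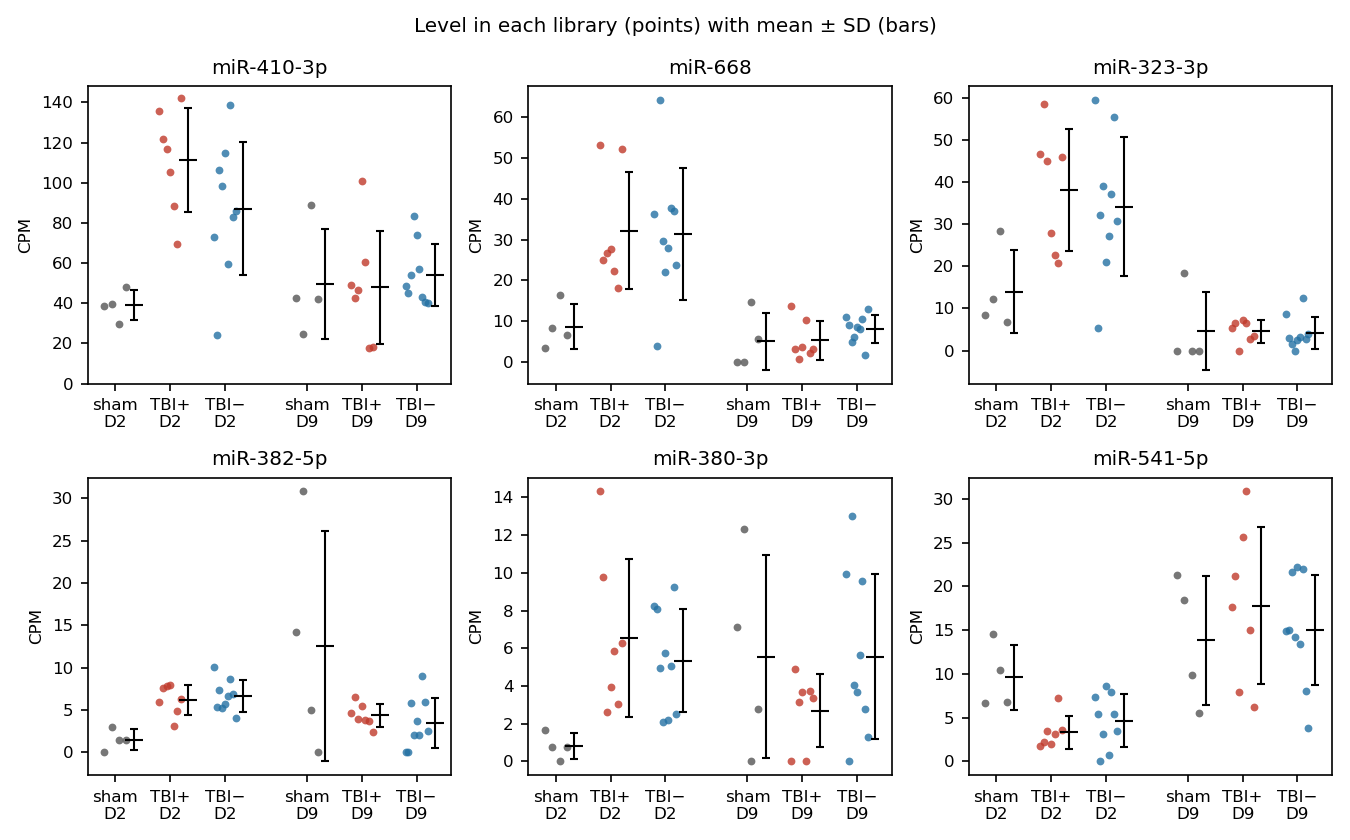
CPM of 6 members in each library (points) with mean ± SD (black bars), for sham (grey), TBI+ (red) and TBI− (blue) on D2 and D9; axes are linear and differ between panels. On D2 the TBI libraries of miR-380-3p and miR-382-5p lie wholly above the 4 sham libraries, whereas miR-541-5p has a lower D2 mean in TBI (4.10 CPM) than in sham (9.61 CPM).

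TBI− rat 2 had the lowest cluster sum of the D2 TBI libraries, 173 CPM against 338 to 663 CPM in the other 15. Without it, 6 members were called, the 5 above and miR-300-3p, with 6.57% of all miRNAs called. This library was left out after its values had been seen.

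Of the other members among the 10 highest, 6 had a positive log2FC on D2 that did not pass by edgeR. Of these 6, DESeq2 called miR-300-3p alone (DESeq2 adjusted p = 0.0141). miR-300-3p stood at 18.5, 61.9, 20.8 and 52.6 CPM in the sham rats and at 29.5, 72.8 and 101.5 CPM in the TBI rats (lowest, median, highest), with a log2FC of 0.85 ± 0.29 (SE; edgeR adjusted p = 0.0902). Its near-identical partner miR-381-3p had a log2FC of 0.53 ± 0.26 (0.273). miR-369-3p, known for binding AU-rich elements of messenger RNAs, had 1.06 ± 0.47 (0.222) and miR-329-5p 1.22 ± 0.57 (0.249). The values were 0.65 ± 0.33 for miR-134-5p (0.286) and 0.79 ± 0.43 for miR-667-3p (0.330).

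Among the 10 highest, the member that stood apart was miR-541-5p. It had 6.73, 14.5, 10.4 and 6.76 CPM in the D2 sham rats and 0, 3.50 and 8.60 CPM (lowest, median, highest) in the TBI rats. Its log2FC was −1.07 ± 0.48 (SE; edgeR adjusted p = 0.222). Of the low members, miR-487b-5p, miR-412-5p, miR-329-3p and miR-134-3p also had a negative log2FC, and none of them passed. Of the difference between the mean cluster sums of TBI and sham, miR-410-3p made 26.5%, miR-300-3p 13.5%, miR-668 10.4%, miR-323-3p 9.95% and miR-381-3p 9.62%, while miR-541-5p went the other way.

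Several low members had reads in the TBI libraries but none in the 4 sham libraries on D2, among them miR-377-3p (22 reads in 9 of 16 TBI libraries), miR-379-3p (17 reads in 9) and miR-411-3p (17 reads in 8). These 3 were named after their values were seen, and none passed the test (edgeR adjusted p from 0.188 to 0.222). All their TBI values were at most 5.20 CPM, and the 3-read limits of the 4 sham libraries were 2.25 to 5.05 CPM.

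The other arms of the 5 called hairpins gave no second view of the change. miR-380-5p, miR-382-3p and miR-410-5p had no read in any library, and miR-668 has 1 named strand in the matrix. miR-323-5p stood at 0, 0.764, 0 and 0.751 CPM in the D2 sham rats (2 reads) and at 0, 1.15 and 5.95 CPM (lowest, median, highest) in the TBI rats (28 reads), a ratio of pooled CPM of 2.61 (95% exact counting interval 0.659 to 22.7).

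Both outcome groups showed the D2 difference from sham. Against sham, TBI+ rats had 3 members called, miR-410-3p (log2FC 1.57 ± 0.30 SE, edgeR adjusted p = 0.0011), miR-668 (1.93 ± 0.46, 0.0119) and miR-380-3p (3.00 ± 0.76, 0.0204), with 2.30% of all miRNAs called higher. The split over all miRNAs was 13 higher and 5 lower, or 12 and 8 when scaled to library totals. The call of miR-668 was lost without sham rat 1 or 4, and that of miR-380-3p without sham rat 2, 3 or 4. In TBI+ 4 members did not overlap with sham, miR-380-3p, miR-382-5p, miR-668 and miR-410-3p, against 3.72% of all miRNAs. DESeq2 called 7 members in this comparison, with 6.02% of all miRNAs called.

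TBI− rats had 5 members called against sham, the same 5 as all TBI rats, with 3.19% of all miRNAs called higher and 2 members without overlap, against 3.72%. Their log2FC were 1.27 ± 0.29 for miR-410-3p (SE; edgeR adjusted p = 0.0055), 1.92 ± 0.45 for miR-668 (0.0068), 2.79 ± 0.76 for miR-380-3p (0.0214), 2.03 ± 0.56 for miR-382-5p (0.0220) and 1.47 ± 0.44 for miR-323-3p (0.0412). When 1 sham rat was left out, 2 to 4 members were called (2 without sham rat 4, 3 without rat 1 or 3). No D2 TBI− library shares a run of library numbers with the shams, so no value within a run can be given.

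Within the run that holds the shams and TBI+ rats 1 to 4, 5 members were called higher in TBI+, with 4.58% of all miRNAs called: miR-380-3p, miR-323-3p, miR-668, miR-369-3p and miR-410-3p. The same 5 were called in TBI against sham with the run as a term, a fit added after the data were seen, with 3.36% of all miRNAs called. In TBI− against sham that fit called 0.354% of all miRNAs and no member.

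TBI+ and TBI− were compared with each other to ask whether a member marked the later epilepsy. On D2 none of 46 members passed, nor did any of 565 miRNAs (0%), by edgeR or DESeq2. At an unadjusted p below 0.05, 1 member was higher and 1 lower in TBI+, against 38 of all miRNAs (6.73%). Those with the lowest p were miR-666-5p (4 reads in 3 TBI− libraries, none in TBI+), miR-379-5p (5 reads in 1 TBI+ library, none in TBI−) and miR-376b-5p (2 reads in TBI+, 10 in TBI−), with edgeR adjusted p from 0.665 to 0.694.

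For the 5 members raised on D2 the TBI+ to TBI− log2FC had 95% intervals of −0.14 to 0.74 for miR-410-3p, −0.61 to 0.63 for miR-668 and −0.57 to 0.70 for miR-323-3p. The interval was −0.97 to 0.50 for miR-382-5p and −0.63 to 1.07 for miR-380-3p. These intervals, from the fit across all miRNAs, leave room for differences of that size in either direction.

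On D9 none of these 5 members passed the test against sham. Among the 42 members with a D9 read, 1 was called in TBI against sham, miR-494-3p, and it was lower; over all miRNAs with a D9 read 19 passed (3.51%), 6 higher and 13 lower (2.4%), or 2 higher and 27 lower when scaled to miR-28-3p. miR-494-3p stood at 0, 197, 0 and 2.79 CPM in the D9 sham rats 1 to 4 and at 0, 2.43 and 12.9 CPM (lowest, median, highest) in the TBI rats. Of its 33 sham reads 32 came from sham rat 2. The log2FC was −3.65 ± 0.76 (SE; edgeR adjusted p = 0.0021), and without sham rat 2 it was 1.25 and no member was called. DESeq2 gave miR-494-3p no adjusted p and called no member.

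The same library set the calls in TBI+ against sham (1 member, with 1.85% of all miRNAs called; miR-494-3p −4.06 ± 0.92 SE, edgeR adjusted p = 0.0058) and in TBI− against sham (1 member, with 4.81% called, 7 higher and 19 lower (3.51%), or 1 and 20 when scaled to miR-28-3p; −3.42 ± 0.82, 0.0115). Without sham rat 2 these log2FC were 0.88 and 1.47, and no member was called. No member separated TBI, TBI+ or TBI− from sham without overlap on D9, against 0.555%, 2.03% and 0.924% of all miRNAs.

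The 5 members raised on D2 had these D9 values. miR-410-3p stood at 42.7, 24.7, 89.1 and 41.9 CPM in the sham rats and at 17.7, 47.5 and 100.9 CPM (lowest, median, highest) in the TBI rats (edgeR adjusted p = 0.885). miR-668 stood at 0, 0, 14.8 and 5.58 CPM in sham and at 0.789, 7.17 and 13.8 CPM in TBI (0.859). miR-323-3p was found in 1 of 4 sham libraries (3 reads in sham rat 2, 18.5 CPM) and stood at 0, 3.22 and 12.4 CPM in TBI (0.894).

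miR-382-5p stood at 14.2, 30.8, 4.95 and 0 CPM in sham and at 0, 3.81 and 9.00 CPM in TBI (edgeR adjusted p = 0.440), and miR-380-3p at 7.11, 12.3, 0 and 2.79 CPM in sham and at 0, 3.69 and 13.0 CPM in TBI (0.995). All 5 overlapped between the groups. With sham totals this low, 1 read was already worth 2.79 CPM or more.

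TBI+ and TBI− did not differ on D9 in any of 42 members or in any other miRNA with a D9 read by edgeR or DESeq2 (0%). Of the members, 2 had an unadjusted p below 0.05, against 4.07% of all miRNAs. The lowest p belonged to miR-134-5p, the regulator of spine size, at 9.47, 23.2 and 47.4 CPM (lowest, median, highest) in TBI+ and 19.5, 29.1 and 167 CPM in TBI−. It was followed by miR-485-5p, at 0, 3.27 and 7.34 CPM in TBI+ and 0, 0.646 and 1.40 CPM in TBI−, and by miR-409a-5p, with 5 reads in 1 TBI+ library and 1 read in 1 TBI− library. Each of the 3 had an edgeR adjusted p of 0.802.

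**Figure D4:**
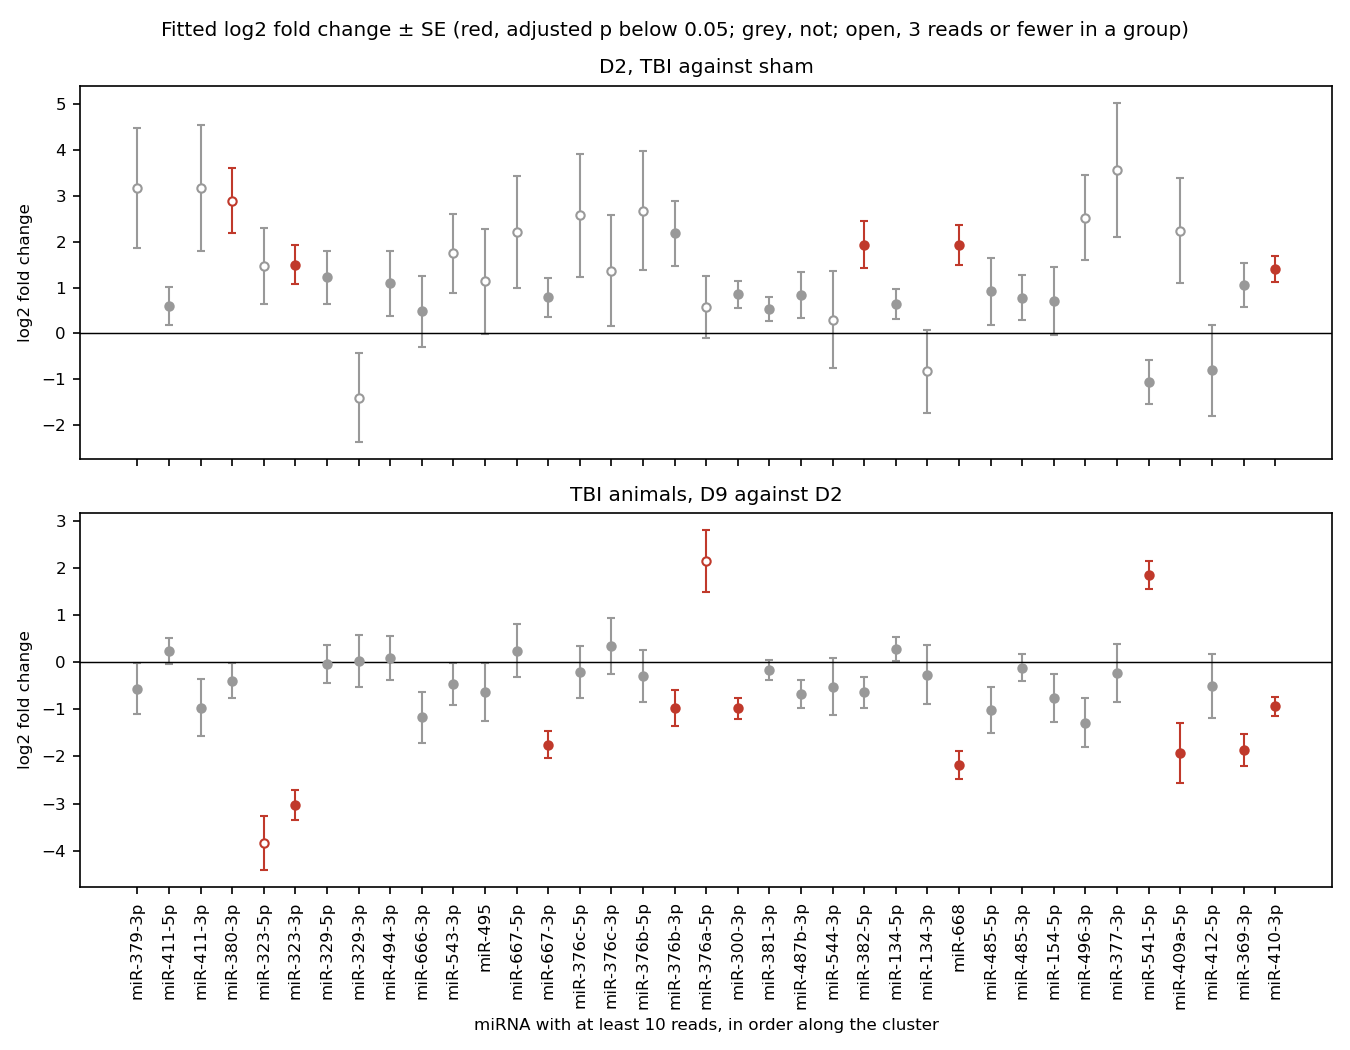
Fitted log2FC ± SE of the members with at least 10 reads, in order along the cluster, for D2 TBI against sham (top) and for D9 against D2 in the TBI rats (bottom); red marks an adjusted p below 0.05 and open circles 3 reads or fewer in 1 of the groups compared. On D2 5 members are red above 0, and between the days miR-541-5p rose by 1.86 while miR-323-3p fell by 3.02.

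Between D2 and D9 the same 16 TBI rats were compared to ask how the members moved with time. The main fit held no term for the rat. Only TBI− rats 5 and 6 had both libraries in the same run of library numbers, so most of these day changes also cross runs. Of 49 members, 11 were called, 9 lower on D9 (miR-323-3p, miR-323-5p, miR-668, miR-667-3p, miR-369-3p, miR-410-3p, miR-300-3p, miR-376b-3p and miR-409a-5p) and 2 higher (miR-541-5p and miR-376a-5p). The background was large: 186 of 581 miRNAs passed (32%), 105 lower (18.1%) and 81 higher (13.9%). The members' share called lower, 9 of 49, was thus near that of all miRNAs. The median log2FC was −0.53 over the members and 0.06 over all miRNAs. A positive log2FC was found in 12 of 49 members (24.5%), against 52.5% of all miRNAs. With the rat as a block 8 members were called, with 27.9% of all miRNAs called, the 11 without miR-376b-3p (edgeR adjusted p = 0.0591), miR-409a-5p (0.0692) and miR-376a-5p (0.284).

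miR-323-3p fell in all 16 TBI rats, from 5.37, 34.6 and 59.6 CPM (lowest, median, highest) on D2 to 0, 3.22 and 12.4 CPM on D9. The D9 maximum of 12.4 CPM lay below every D2 value except that of TBI− rat 2. The log2FC was −3.02 ± 0.32 (SE; edgeR adjusted p = 9.8e-11), an 8.14-fold fall. The second strand of the same hairpin, miR-323-5p, had 28 reads in 14 of 16 TBI libraries on D2 and none on D9. Since its D2 median of 1.15 CPM lay under the 3-read limit of every D2 TBI library, no fold is given.

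miR-668 fell in 15 of 16 TBI rats, from 4.03, 27.9 and 64.3 CPM to 0.789, 7.17 and 13.8 CPM (log2FC −2.19 ± 0.30 SE, edgeR adjusted p = 7.1e-08). The exception was TBI− rat 2, with 4.03 CPM on D2 and 9.03 CPM on D9. miR-667-3p fell in 15 of 16, from 5.55, 23.6 and 41.2 CPM to 1.44, 7.37 and 11.85 CPM (−1.75 ± 0.29, 4.5e-06). miR-369-3p fell in 15 of 16, from 8.06, 14.6 and 41.2 CPM to 0, 4.17 and 13.6 CPM (−1.87 ± 0.33, 1.6e-05).

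The 2 most abundant members that moved did so by less. miR-410-3p fell in 15 of 16 TBI rats, from 24.2, 101.7 and 142 CPM to 17.7, 47.5 and 100.9 CPM (log2FC −0.93 ± 0.20 SE, edgeR adjusted p = 0.00027), and miR-300-3p in 14 of 16, from 29.5, 72.8 and 101.5 CPM to 6.42, 29.9 and 81.6 CPM (−0.98 ± 0.23, 0.00057). miR-376b-3p, of a family whose seed can be edited by ADAR enzymes, fell in 13 of 16 (−0.97 ± 0.38, 0.0457), and miR-409a-5p in 11 of 16, from 31 to 6 reads (−1.93 ± 0.63, 0.0152).

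miR-541-5p moved the other way in all 16 TBI rats, from 0, 3.50 and 8.60 CPM on D2 to 3.87, 15.0 and 30.9 CPM on D9 (log2FC 1.86 ± 0.29 SE, edgeR adjusted p = 2.1e-06), a 3.63-fold rise. In the sham rats it stood at 6.73, 14.5, 10.4 and 6.76 CPM on D2 and at 21.3, 18.5, 9.90 and 5.58 CPM on D9, higher in 2 of 4. miR-376a-5p had 1 read on D2 and 12 on D9, in 4 of 16 TBI rats, a ratio of pooled CPM of 12.3 (95% exact counting interval 1.82 to 525.6). Its other strand, miR-376a-3p, had no read.

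Among the other abundant members, miR-381-3p, miR-134-5p and miR-329-5p did not pass between the days in the TBI rats (edgeR adjusted p = 0.564, 0.400 and 0.968). miR-381-3p stood at 37.6, 73.3 and 114 CPM on D2 and at 10.7, 67.7 and 117.3 CPM on D9, lower in 9 of 16 rats, whereas its near-identical partner miR-300-3p was lower in 14. miR-382-5p and miR-380-3p, raised on D2, did not pass either (0.126 and 0.440).

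In the 7 TBI+ rats alone and in the 9 TBI− rats alone, 10 members were called each, with 14.6% and 18.7% of all miRNAs called, and miR-323-5p, miR-323-3p, miR-667-3p, miR-300-3p, miR-668, miR-541-5p, miR-369-3p and miR-410-3p were in both, 7 of them lower and miR-541-5p higher. These 2 fits were added after the data were seen, and the difference between the outcome groups was not tested across days.

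**Figure D5:**
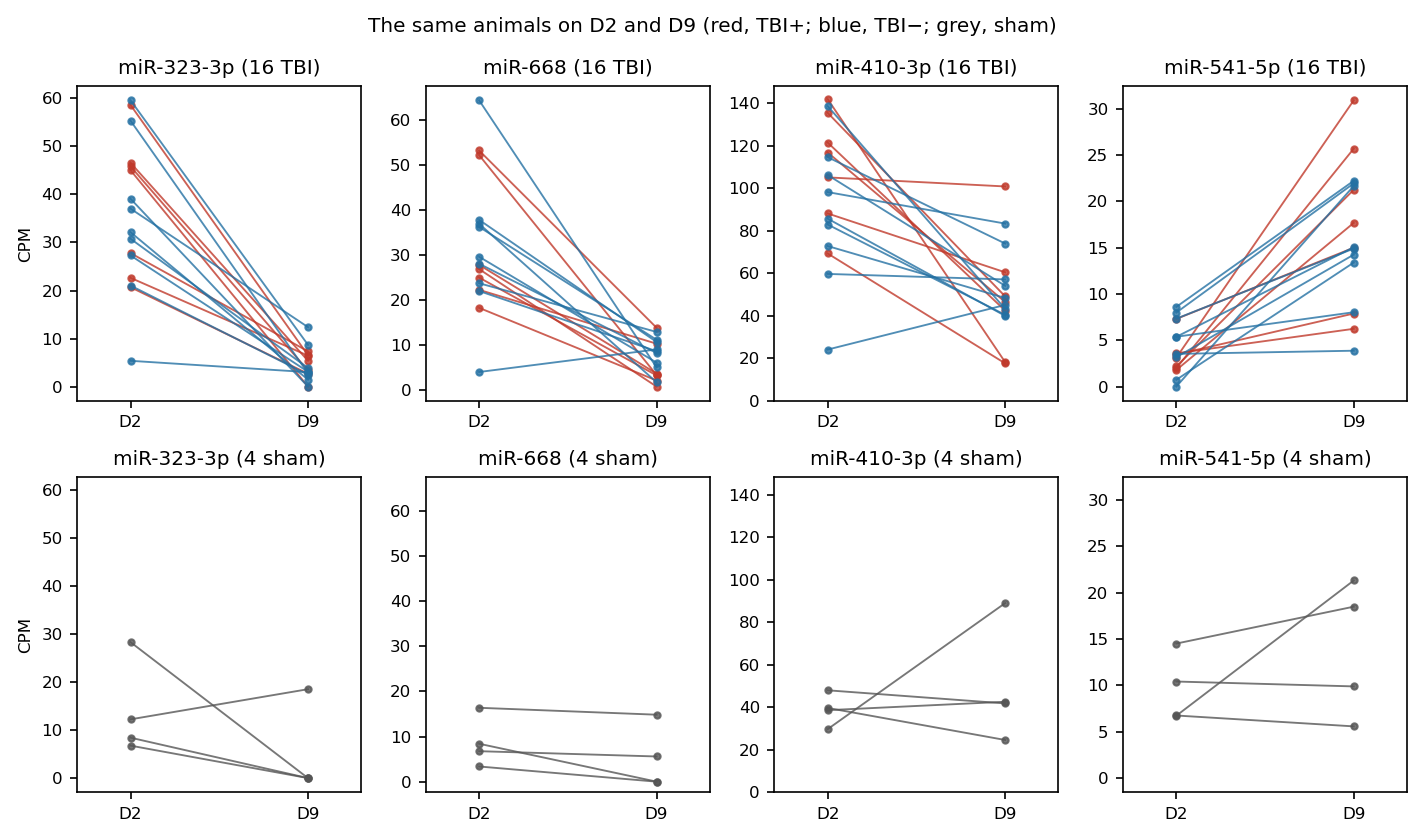
CPM of miR-323-3p, miR-668, miR-410-3p and miR-541-5p in the same rats on D2 and D9, with a line for each rat, for 16 TBI rats (top; red TBI+, blue TBI−) and 4 sham rats (bottom); panels of 1 miRNA share a linear axis. miR-323-3p is lower on D9 in 16 of 16 TBI rats and miR-541-5p higher in 16 of 16.

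In the 4 sham rats 2 of 49 members were called between the days, both higher on D9, with 6.71% of all miRNAs called (17 higher, 2.93%, and 22 lower, or 31 and 0 when scaled to miR-28-3p). miR-494-3p rose with the D9 library of sham rat 2 (log2FC 4.80 ± 1.06 SE, edgeR adjusted p = 0.0035; −0.44 without that rat), and miR-382-5p went from 0, 3.06, 1.49 and 1.50 CPM to 14.2, 30.8, 4.95 and 0 CPM (2.61 ± 0.84, 0.0480). Without sham rat 2 no member and 0.345% of all miRNAs were called. With the rat as a block neither passed (0.219 and 0.215), and miR-329-5p and miR-134-5p, the spine regulator, were called higher in their place, with 4.82% of all miRNAs called.

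miR-134-5p stood at 6.73, 21.4, 31.3 and 23.3 CPM in the D2 sham rats and at 42.7, 80.2, 64.3 and 50.3 CPM on D9, higher in 4 of 4, and miR-329-5p at 0, 6.88, 2.98 and 5.26 CPM and 35.6, 6.17, 74.2 and 8.38 CPM, higher in 3 of 4. The D2 and D9 sham libraries lie in different runs of library numbers, so no value within a run can be given, and with the run as a term miR-494-3p was the 1 member called in the sham rats, with 3.44% of all miRNAs called.

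Whether the TBI rats moved differently from the sham rats was tested as the difference of the 2 changes. Of 49 members 2 were called, miR-494-3p (−4.71 ± 1.16 SE, edgeR adjusted p = 0.0167) and miR-382-5p (−3.25 ± 0.90, 0.0332), with 3.79% of all miRNAs called (11 higher and 11 lower, 1.89%, or 4 and 18 when scaled to miR-28-3p). Neither was called without sham rat 2, nor with the rat as a block (0.310 and 0.142), where miR-329-5p was called instead, with 2.93% of all miRNAs called.

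Of the members that fell in the TBI rats, none was called by edgeR as falling more than in sham, whereas DESeq2 called miR-410-3p. The difference was −1.18 for miR-323-3p (95% interval −3.58 to 1.23), −1.61 for miR-668 (−3.58 to 0.36), −0.08 for miR-667-3p (−2.21 to 2.04) and −1.30 for miR-410-3p (−2.28 to −0.33; edgeR adjusted p = 0.149, DESeq2 0.0287). In the sham rats miR-323-3p had 49 reads on D2 and 3 on D9, a ratio of pooled CPM of 0.277 (95% exact counting interval 0.0552 to 0.859). miR-668 was lower on D9 in 4 of 4 sham rats and miR-667-3p in 3 of 4. For both, the 3-read limits of the D9 sham libraries (8.38 to 21.3 CPM) exceeded the D2 value in most sham rats. In those rats a fall is not resolved.

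The hemolysis index, log2 of miR-451-5p over miR-23a-3p, was higher on D9 than on D2 in the TBI rats by 1.55 (means −0.28 and 1.28; two-sided exact test over the signs of the 16 paired differences, p = 3.05e-05, the lowest p possible with 16 rats) and in the sham rats by 1.65 (exact p = 0.125, the lowest possible with 4 rats). The summed red blood cell miRNAs did not follow it in both groups: they ranged from 85444 to 163253 CPM on D2 and from 116182 to 257943 CPM on D9 in the TBI rats, but from 122018 to 195609 CPM and from 92914 to 145708 CPM in the sham rats. With this index as a covariate, 7 members were called between the days in TBI, against 7.92% of all miRNAs in place of 32%: miR-323-5p, miR-323-3p, miR-667-3p, miR-668, miR-541-5p and miR-369-3p of the 11, and miR-494-5p, which had 1 read. miR-410-3p then had a log2FC of −0.39 (edgeR adjusted p = 0.485) and miR-300-3p −0.49 (0.512). Since the index itself rose with the day, this covariate also takes up day changes that have nothing to do with hemolysis. The fit cannot tell the 2 apart, and no part of the falls is assigned to hemolysis.

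On D2 the index did not separate TBI from sham (−0.28 and −0.52; exact permutation test, two-sided p = 0.502), and with it as a covariate the 5 members and 2 more, miR-376b-3p and miR-300-3p, were called, with 7.43% of all miRNAs called. The lymphocyte miRNAs summed to 20359 to 44216 CPM in the D2 sham libraries and 5968 to 30239 CPM in the D2 TBI libraries, and the platelet and myeloid miRNAs to 18232 to 32298 CPM and 7260 to 25977 CPM. The 7 neuronal miRNAs summed to 5548 to 9334 CPM in sham and 4358 to 16405 CPM in TBI. By the study's D2 mean counts this sum is mostly miR-128-3p, so it hides the less abundant members of the list. Of these, miR-124-3p, miR-129-5p and miR-132-3p are in the study's own list of miRNAs higher in TBI on D2. No miRNA of the neuronal list is among those the study found lower. The part of these cell lists in the D2 difference was not tested.

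Of 23 Dlk1-Dio3 domain miRNAs outside the cluster in the matrix, 20 had a D2 read, and 4 of them were called higher in TBI than in sham on D2 and none lower, against 3.19% of all miRNAs called higher: miR-433-3p, miR-127-3p, miR-136-3p and miR-341, of which the first 3 lie antisense to the paternally expressed gene Rtl1. They were named after their values were seen, and without sham rat 1 a single one remained called and without sham rat 4, 2. From D2 to D9 in the TBI rats, 7 of 21 were called, 5 lower and 2 higher, a share (33.3%) near the 32% of all miRNAs. No domain miRNA outside the cluster was called on D9 between TBI and sham, where the lowest edgeR adjusted p was 0.327.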

How the data were processed

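Small RNA libraries were made from plasma RNA with the TruSeq Small RNA kit and sequenced as short single reads. Per the study's methods and the labels, the authors ran FastQC (v11.8) and Trimmomatic (v0.36), discarded very short reads, merged the flow cells of a sample, aligned with Bowtie2 in local mode to the rat genome Rno6 and counted reads with featureCounts on the miRBase annotation. The deposited values are raw read counts per mature miRNA, 1 per library. How reads matching several miRNAs, and reads on either strand, were counted is not given in the sources used here.

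Members, lists and named miRNAs were chosen with earlier results of these data known. Named were members called in any comparison, the other strand of their hairpins, the 10 members with the highest mean CPM, the 3 lowest p in a comparison without a call, and miR-323-3p. CPM was computed as 1000000 times the count over the library total of the 752 miRNAs. All miRNAs with at least 1 read among the libraries of a fit were tested with edgeR (4.0.16, R 4.3.3), TMM scaling and the quasi-likelihood test, with Benjamini-Hochberg adjustment; 11 comparisons were made. Fits of 1 day used its 20 libraries, with 2 levels (TBI, sham) or 3 (TBI+, TBI−, sham). Day comparisons used all 40, with levels for sham or TBI by day and no term for the rat. DESeq2 (1.42.0), other scalings, filters, thinning, the hemolysis index, blocks and left-out rats were alternatives. The fits were tested on simulated counts. Sequences and strands came from RefSeq (GRCr8), with no coordinates converted. Intervals of ratios are exact conditional intervals for 2 Poisson counts.

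Within a day each label names a separate rat, and no 2 libraries held identical counts. The titles give the same rat on both days. The main day fits did not use this pairing, which entered only in the alternative fit with the rat as a block. Deviations of the 2 libraries of a rat from their group means correlated with a median of −0.058 over 20 rats (4 above 0.1; 274 miRNAs).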

Additional observations from a re-analysis of the deposited data

Results flagged for a closer look

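Values of 17 named members and of the cluster sum were checked in each group and day for 1 library far from the rest, in 100 sets of values that were not constant. For normally distributed values chance would flag about 1 in 20 such sets, and 14 were flagged here. That rate does not hold for low counts with ties: a set with 1 library above 0 and the rest at 0 is always flagged. The number flagged is therefore not set against chance. Most of the 14 rest on few reads.

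Sham rat 2 stood apart on D9 in miR-494-3p (197 CPM, next highest 2.79 CPM) and in miR-323-3p (18.5 CPM, the other shams at 0). TBI− rat 7 stood apart on D9 in miR-134-5p (167 CPM, next 59.2 CPM), in miR-494-3p (12.9 CPM, next 4.94 CPM) and in miR-376a-5p (1.69 CPM, the others at 0). TBI+ rat 1 stood apart on D9 in miR-376a-5p (4.61 CPM, next 1.29 CPM) and in miR-409a-5p (3.84 CPM, the others at 0). On D9, TBI− rat 8 was the only TBI− rat with a miR-409a-5p read (0.349 CPM), and TBI+ rat 4 the only TBI+ rat without a miR-369-3p read (0 CPM, next 3.16 CPM). On D2, TBI+ rat 4 was highest in miR-323-5p (5.95 CPM, next 2.60 CPM), TBI− rat 4 in the same miRNA among TBI− (3.17 CPM, next 1.54 CPM), TBI+ rat 6 in miR-541-5p (7.30 CPM, next 3.59 CPM) and TBI+ rat 7 in miR-376a-5p (0.899 CPM, the others at 0). Sham rat 4 was the only D2 sham with a miR-409a-5p read (0.751 CPM).

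In 2 members the change from D2 to D9 differed between TBI and sham by the test of that difference itself: miR-494-3p (log2 difference −4.71) and miR-382-5p (−3.25). Without sham rat 2 the differences were 0.62 and −2.56, and neither passed.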

How the results depend on the processing

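The D2 calls in TBI against sham were 5 members and 4 to 7 under each alternative scaling, filter, thinning, covariate, block, run term and DESeq2, and 2 to 6 when 1 sham rat was left out (3 without rat 1, 2 without rat 4). The 4 neighbouring domain miRNAs of D2 came to 1 to 4 without 1 sham. In TBI+ against sham, 3 members became 5 with filterByExpr, with the replicate number as a block, within 1 run of library numbers and with the run as a term, and 7 with DESeq2 (1 to 3 without 1 sham). In TBI− against sham, 5 became 3 after thinning or with the block, and 0 with the run as a term (2 to 4 without 1 sham). The block used the rat number, which across groups names different rats (median correlation −0.039 over 30 pairs, 8 above 0.1), so it is no pairing there.

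On D9, the 1 member called in TBI, TBI+ and TBI− against sham became 0 with filterByExpr and with DESeq2 in all 3, 0 with the block in TBI+ and TBI−, 0 with the run as a term in TBI−, and 2 after thinning in TBI+ (0 to 1 without 1 sham in each; log2FC of miR-494-3p −4.10 to 1.25, −4.50 to 0.88 and −3.86 to 1.47). Between the days in sham, 2 became 1 with library totals, the hemolysis index or the run as a term, 4 when scaled to miR-28-3p and 0 after thinning (0 to 3 without 1 sham; miR-494-3p −0.44 to 5.59). The difference of changes went from 2 to 1 with filterByExpr, 1 with the rat as replicate block and 0 after thinning or with the run term (0 to 2 without 1 sham; miR-494-3p −5.50 to 0.62). Between the days in TBI, 11 became 7 with the hemolysis index, and the 7 neighbours became 4 after thinning and 3 with the index; the rat block gave 8 members. After thinning miR-376b-3p turned to 0.37. The causes were not tested, except that thinning and filters leave fewer reads or miRNAs.

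Of 503 further values for 40 named fold changes, 403 kept direction and side of the threshold, 78 lost the call, 16 gained it and 6 reversed; DESeq2 gave no adjusted p for 6 more. On D2 the median log2FC of all miRNAs in TBI against sham was 0.09 and, by scaling, −0.02 to 0.18, while that of the members was 0.99 to 1.21. The members' median includes those without a sham read, which could only come out positive. Depth limits the D9 sham libraries most.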
